A study of Drosophila melanogaster with 16 samples.

Results

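The genes described here are 10 antimicrobial peptide genes of the fly: the diptericins Dpt and DptB, the defensin Def, the attacins AttA, AttB, AttC and AttD, the drosocin gene Dro, the cecropin CecA1 and the metchnikowin Mtk. They were chosen by name from the 16680 genes of the count table, and the row Dpt is the gene now called DptA. RNA was sequenced from dissected midguts of virgin females and virgin males, with 30 guts pooled per library and 4 libraries in each of 4 groups. The control genotype is labelled w1118; mex1-GAL4 TS/+, so the controls carry the driver as well. The other genotype is labelled mex1TS > MycRNAi GD1419, in which the driver is combined with an RNAi line against Myc. The mex1 driver is active in enterocytes, the absorptive cells of the midgut, so other gut cells are not directly targeted. The age of the flies, the rearing temperature and the microbial state of the guts are not given in the labels.

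Antimicrobial peptides are small secreted proteins that kill bacteria or fungi. In the midgut they are switched on mainly by the IMD pathway: peptidoglycan of bacteria is bound by the receptors PGRP-LC and PGRP-LE, and the signal ends at the NF-kB factor Relish. Enzymes that cut peptidoglycan (PGRP-LB and the PGRP-SC proteins) and the inhibitor pirk keep the response to the resident bacteria low. Diptericins, attacins, drosocin and cecropins act mainly on Gram-negative bacteria, defensin on Gram-positive bacteria and metchnikowin largely on fungi.

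Total counts per library ranged from 16630050 to 53586401, and 1 read was worth 0.0161 to 0.0532 CPM (reads scaled to library size with TMM factors). The transcript of Myc, listed as dm, was at 60.5 to 126.5 CPM in female controls and 43.7 to 83.7 CPM in females labelled Myc RNAi (log2 fold change −0.59, SE 0.26, edgeR adjusted p = 0.0892). Male controls had 19.8 to 34.0 CPM against 30.6 to 60.2 CPM with the RNAi label (0.65, SE 0.26, edgeR adjusted p = 0.0619), which goes against the label, so these libraries are called "labelled Myc RNAi". Male replicate 16 of that genotype stood apart, with 18531 reads from 9 testis germline genes against 30 to 52 in the other 3 libraries of its group. Female control replicate 3 stood apart in a list of fat body markers, with 155.7 summed CPM over 8 genes against 15.2 to 26.0 in the other 3. Of these 8, Cyp4g1 is not particular to fat body. It had 20.4 ± 25.8 CPM in female controls, and Lsp2 had 17.9 ± 33.7 CPM (SD, n = 4). Genes are described relative to all 9314 genes that passed the filter on low counts. "Changed" means an edgeR quasi-likelihood p below 0.05 after Benjamini-Hochberg adjustment over all of them.

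Of the 10 genes, 8 passed the filter; AttC, with 162 reads over the 16 libraries, and Mtk, with 21, did not. Dpt, DptB, Def and AttD had enough reads in all 16 libraries. AttA (8 libraries), Dro (10), CecA1 (11) and AttB (12) reached the filter's level mostly in males, and no female control library reached it for AttA. These 4 genes therefore could enter the test through the male groups, and counts over the tested genes are descriptions.

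Most of the genes lie on chromosome arm 2R (dm6 coordinates, from the Ensembl annotation of BDGP6). Dpt (2R, 18865765 to 18866260) and DptB (2R, 18867391 to 18867895) are neighbours on the plus strand. Dro (14745961 to 14746714), AttA (14747362 to 14748215) and AttB (14749223 to 14750165) form a cluster on 2R with gaps of 647 and 1007 bases. AttA and AttB are near-identical copies, so reads could be split or dropped between them. AttC (2R, 13393705 to 13394667) shares 53 bases with the antisense gene CG4744. Def (2R, 10054178 to 10054576, minus strand) lies in an intron of magu on the other strand, and Mtk (2R, 15408846 to 15409113) in an intron of Stacl on the same strand. AttD (17625268 to 17626086) and CecA1 (30210874 to 30211273) lie on 3R. The strand setting of the counting is not given in the sources used here.

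Dpt was the most abundant transcript of the set in every group on a per-length scale, followed by Def. In male controls the mean levels per kilobase of exon were 534 ± 100.3 CPM per kb for Dpt (SD, n = 4), 74.8 ± 16.4 for Def, 46.8 ± 10.5 for DptB and 17.1 ± 10.5 for AttD. CecA1 (6.72 ± 3.72 CPM per kb), Dro (3.76 ± 2.23), AttA (2.48 ± 1.70), AttB (1.25 ± 1.11), AttC (0.761 ± 1.01) and Mtk (0.382 ± 0.538) were lower. In female controls Dpt was at 50.8 ± 60.5 CPM per kb and Def at 12.9 ± 5.46, ahead of AttD (7.02 ± 4.18) and DptB (4.79 ± 4.68). Dpt alone gave 65.9% to 81.9% of the summed CPM of the 10 genes in the 8 male libraries and 31.9% to 80.7% in the 8 female libraries. The lowest of these shares came from female control replicate 4, in which AttD, an attacin without a signal peptide, made up 50.4%.

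**Figure D1:**
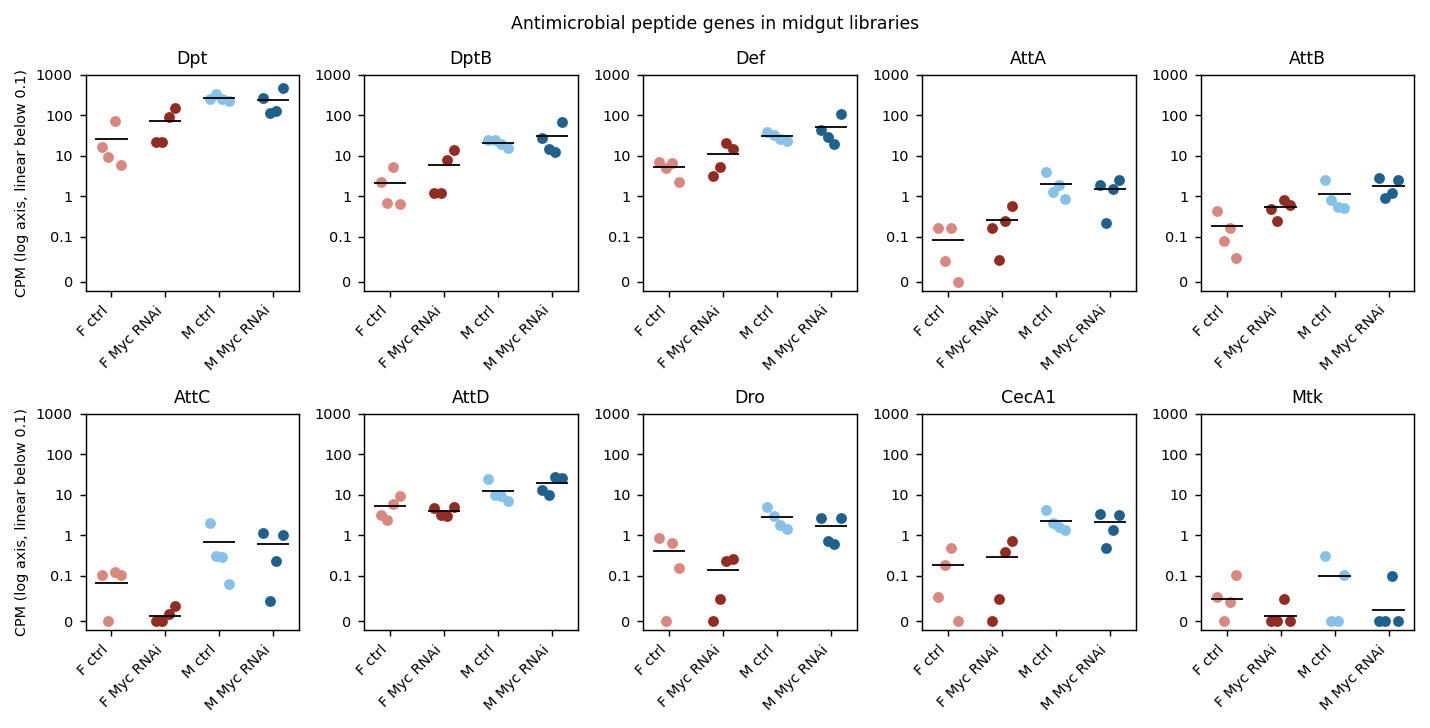
Normalised level (CPM, log axis that is linear below 0.1) of the 10 genes in each library, by group; F is female, M is male, ctrl is control, points are the 4 libraries of a group and lines their means. Dpt lies between 5.83 and 69.8 CPM in female controls and between 226 and 338 CPM in male controls.

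Among controls, all 8 tested genes of the set had lower estimated levels in female than in male midguts, and 6 of these differences passed. Of the 10 genes, 6 were lower in females (Dpt, DptB, Def, AttA, AttB and CecA1), 2 that were tested did not pass (AttD and Dro), 2 were not tested and none was higher. Of all tested genes, 5.27% were called lower and 5.02% higher in females in this comparison. The median log2 difference over the 8 tested genes was −3.00, against −0.01 over all tested genes. In 7 of the 10 genes no female control overlapped a male control, against 7.06% of all tested genes in that direction. In whole guts, fewer cells that make a transcript and less of it per cell cannot be told apart.

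Dpt, a diptericin and a common readout of IMD signalling, was at 16.1, 9.16, 69.8 and 5.83 CPM in the 4 female controls. In the male controls it was at 254, 338, 242 and 226 CPM. All 4 males were more than 3 times above the highest female, which was replicate 3. The log2 difference of females against males was −3.39 (SE 0.79, edgeR adjusted p = 0.0122), a 10.5-fold difference. It was −4.68 without female control replicate 3 and passed the test without any 1 of the 16 libraries.

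DptB, the second diptericin, followed the same order at a lower level. It was at 2.18, 0.684, 5.11 and 0.624 CPM in female controls and at 24.8, 24.9, 19.2 and 15.2 CPM in male controls. The groups did not overlap, with a log2 difference of −3.26 (SE 0.82, edgeR adjusted p = 0.0188). The call ended without female control replicate 1 or 2 (edgeR adjusted p up to 0.0589). Across all 16 libraries the ratio of Dpt to DptB ranged from 6.73 to 18.9.

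Def encodes the only defensin of the set. Its levels were 6.91, 4.83, 6.65 and 2.18 CPM in female controls and 37.5, 32.9, 25.7 and 23.3 CPM in male controls. Every male was above every female, and here female replicate 3 was not the highest. The log2 difference of Def was −2.53 (SE 0.59, edgeR adjusted p = 0.0125), 5.78-fold, and it passed without any 1 library.

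AttA, an attacin, was nearly silent in female controls, with 3, 1, 4 and 0 reads, or 0 to 0.166 CPM. In male controls it had 76, 36, 56 and 40 reads, or 0.8288 to 3.87 CPM. The groups did not overlap and the log2 difference of −4.30 (SE 0.88, edgeR adjusted p = 0.00536) was the largest of the set; it passed without any 1 library. A library with 0 reads allows a level of up to 0.0481 to 0.160 CPM, depending on its depth, from counting error alone.

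AttB ranged from 0.0520 to 0.425 CPM in female controls and from 0.518 to 2.55 CPM in male controls, with replicate 5 the highest male. Its log2 difference was −2.55 (SE 0.69, edgeR adjusted p = 0.0262), and the call ended without female control replicate 2, 3 or 4 or male control replicate 5 (edgeR adjusted p up to 0.0794). With the reads of AttA and AttB summed, the difference was −3.44 (SE 0.70, edgeR adjusted p = 0.00523). AttC had 2, 0, 3 and 2 reads in female controls and 40, 9, 9 and 4 in male controls. Most of the AttC reads of male controls thus came from replicate 5.

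AttD had the smallest difference of the 8 tested genes. It was at 3.19, 2.37, 6.06 and 9.21 CPM in female controls and at 24.3, 10.03, 9.22 and 7.19 CPM in male controls. The groups overlapped, because female replicate 4 was above male replicate 8. The log2 difference was −1.27 (SE 0.45, edgeR adjusted p = 0.0873); it passed without female control replicate 4 (−1.64, edgeR adjusted p = 0.0364).

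CecA1, a cecropin that lyses bacterial membranes, had 1, 4, 12 and 0 reads in female controls and 81, 57, 49 and 65 in male controls. Its levels were 0 to 0.498 and 1.35 to 4.13 CPM, with no overlap (log2 difference −3.52, SE 0.98, edgeR adjusted p = 0.0304). The call ended without female control replicate 1, 2 or 4 or male control replicate 5 or 6 (edgeR adjusted p up to 0.0868). Dro had 16, 0, 16 and 3 reads in female controls against 101, 85, 54 and 68 in male controls, again without overlap, at 0 to 0.851 and 1.41 to 5.15 CPM. Its log2 difference was −2.74 (SE 0.87) and did not pass (edgeR adjusted p = 0.0543). It passed without replicate 9 or 16 of the libraries labelled Myc RNAi (edgeR adjusted p as low as 0.0364). Mtk had at most 6 reads in any library, with 4 over the female controls and 11 over the male controls, too few for a comparison.

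Markers of other tissues and cell types were read beside this sex difference. The fat body list, which includes Cyp4g1, stands for the tissue that secretes antimicrobial peptides into the blood. Of its 8 genes 7 were tested, 1 was higher in female controls (apolpp) and none was lower. The apolpp call ended without any of 6 libraries (edgeR adjusted p up to 0.123) and with no filter. The summed level of the 8 genes was 15.2 to 155.7 CPM in female and 6.38 to 17.99 CPM in male controls, the highest being female replicate 3. Fbp1 had 0 reads in female controls. Of 8 markers of blood cells, 6 were tested and none was called; their sum was 21.8 to 42.9 CPM in female and 32.5 to 39.9 CPM in male controls, and He was at 0 in female controls. Of 7 enterocyte markers none was called in this comparison. Their sums also lay apart, at 4825 to 5716 CPM in female and 5866 to 6656 CPM in male controls. Among 8 enteroendocrine markers, 3 (AstA, Dh31 and CCHa1) were lower in female controls and the others were not called. NPF had the higher mean in female controls, at 42.8 ± 8.47 CPM against 37.2 ± 6.95 CPM in male controls. The list summed to 422 to 522 CPM in females and 552 to 798 CPM in males. The CCHa1 call ended without male control replicate 6, 7 or 8, and under total-count scaling its edgeR adjusted p was 0.0934. Of 5 genes listed for Malpighian tubules (Uro, Irk2, Best2, Vha68-1 and byn) none was called. Most of their level came from 1 gene, Irk2, at 49.7 ± 11.9 CPM in female and 85.7 ± 32.55 CPM in male controls. Uro was at 0.559 ± 0.725 and 1.67 ± 1.43 CPM. The 5 summed to 51.2 to 71.2 CPM in female and 78.1 to 152.5 CPM in male controls, without overlap. The highest of these sums was in male control replicate 5, which was also the highest male control in Def, AttA, AttB, AttC, AttD, Dro and CecA1. The part of these tissues in the sex difference was not tested.

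In the libraries labelled Myc RNAi, females were again below males for every tested gene of the set, and fewer differences passed. AttD, Def and Dro were lower in females, 3 of the 10, while 5 tested genes did not pass and none was higher; 2.72% of all tested genes were called lower and 2.85% higher. The median log2 difference of the 8 tested genes was −2.31, against −0.01 over all tested genes. In 4 of the 10 genes (AttB, AttC, AttD and Dro) the sexes did not overlap, against 6.39% of all tested genes in that direction. AttC was not among the tested genes, and its separation rests on depth scaling of single reads. Male replicate 14 had 1 read (0.0447 CPM), as did female replicates 11 (0.0161 CPM) and 12 (0.0325 CPM).

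AttD, which was not called in controls, was the clearest case. It was at 4.69, 3.24, 3.02 and 4.95 CPM in females and at 13.2, 9.96, 27.9 and 26.6 CPM in males. The sexes were fully apart, with a log2 difference of −2.29 (SE 0.46, edgeR adjusted p = 0.00809) that passed without any 1 library. Def was at 3.08, 5.11, 20.4 and 14.7 CPM in females and at 41.9, 28.6, 19.6 and 107.6 CPM in males. Female replicate 11 lay above male replicate 15, and the difference of −2.17 (SE 0.56, edgeR adjusted p = 0.0348) did not pass once replicate 9, 10, 12 or 16 was left out (up to 0.0997). Dro had 0, 1, 15 and 8 reads in females and 69, 16, 18 and 142 in males, or 0 to 0.260 and 0.610 to 2.75 CPM. Its difference was −3.47 (SE 0.91, edgeR adjusted p = 0.0367), and the call ended without male control replicate 6 or any of replicates 9 to 13 or 16 (up to 0.0957).

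The diptericins overlapped between the sexes here. Dpt was at 22.2, 21.6, 89.3 and 150 CPM in females labelled Myc RNAi and at 261, 112, 125 and 456 CPM in males. Female replicate 12 was above male replicates 14 and 15, and the difference of −1.75 (SE 0.73) did not pass (edgeR adjusted p = 0.197). DptB was at 1.17, 1.18, 7.62 and 14.02 CPM in females and at 26.7, 14.3, 12 and 67.8 CPM in males. Its difference of −2.32 (SE 0.75, edgeR adjusted p = 0.0842) passed without female replicate 12 (edgeR adjusted p = 0.0484). AttA (−2.50, SE 0.74, edgeR adjusted p = 0.0589), AttB (−1.75, SE 0.60, 0.102) and CecA1 (−2.75, SE 0.90, 0.0853) did not pass; AttA passed without replicate 14 (edgeR adjusted p = 0.0222). AttC had 0, 0, 1 and 1 reads in these females and 29, 1, 7 and 54 in these males. In the library with 54, the overlapping antisense gene CG4744 had 576 reads, against at most 3 in any other.

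Male replicate 16, the library with testis reads, was the highest of its group in Dpt, DptB, Def, AttA and Dro. Without it, AttD was the only gene of the set called lower in females labelled Myc RNAi. The fat body list summed to 9.10 to 59.96 CPM in these females and 4.16 to 13.5 CPM in these males, with none of 7 tested genes called. Cyp4g1 of that list had means of 23.8 ± 22.8 CPM in these females and 1.89 ± 1.5 CPM in these males. Blood cell markers summed to 27.1 to 49.3 and 18.2 to 40.5 CPM, with none of 6 called. Of 8 enteroendocrine markers 3 (AstA, AstC and CCHa2) were lower in these females, with sums of 339 to 411 CPM against 406 to 669 CPM in males. The AstA call ended with total-count scaling (edgeR adjusted p = 0.0641), with no filter and without any of 6 libraries (up to 0.105). The Malpighian tubule list summed to 33.4 to 64.2 and 40.2 to 56.4 CPM, overlapping, with none of 5 called. The part of these cell types was not tested.

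**Figure D2:**
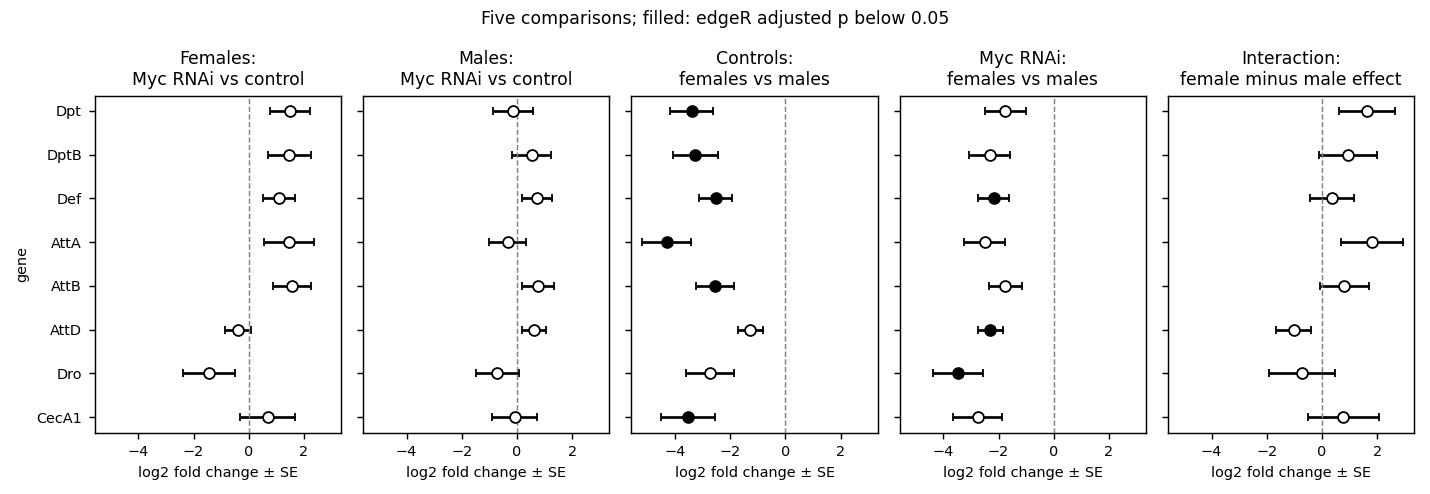
Log2 fold changes with standard errors for the 8 tested genes in the 5 comparisons, 4 libraries per group; filled points passed the test. The filled points lie in the comparisons of females with males, and every point of those 2 panels is below 0.

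None of the 10 genes was called between libraries labelled Myc RNAi and controls in females, although 36.1% of all tested genes were. Dpt (log2 fold change 1.49, SE 0.73, edgeR adjusted p = 0.131), DptB (1.47, SE 0.79, 0.168), Def (1.09, SE 0.57, 0.158), AttA (1.46, SE 0.91, 0.239), AttB (1.56, SE 0.69, 0.0888) and CecA1 (0.69, SE 0.999, 0.646) had positive values. AttD (−0.39, SE 0.46, 0.561) and Dro (−1.45, SE 0.94, 0.26) had negative ones. AttB was the 1 tested gene with an unadjusted p below 0.05 (0.0369), against 44.0% of all tested genes, and DESeq2 and limma voom also called none. The median was 1.28 over the 8 tested genes and 0 over all tested genes. In every one of the 10 genes the libraries of the genotypes overlapped; without overlap were 19.5% (higher) and 17.8% (lower) of all tested genes.

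Single libraries decided some of these values. Dpt was higher in females labelled Myc RNAi without female control replicate 3, the library high in the fat body list (2.78, edgeR adjusted p = 0.00554). AttB was higher without female control replicate 1 (2.31, edgeR adjusted p = 0.0288). Without female control replicate 3 the remaining controls had 5.83 to 16.1 CPM of Dpt, below the 21.6 CPM of the lowest female labelled Myc RNAi. The part of fat body tissue in the level of replicate 3 was not tested. With libraries scaled to total counts alone, Dpt, Def and AttB were called higher; that scaling moved the median of all tested genes to 0.43. Females labelled Myc RNAi were themselves split, replicates 9 and 10 holding 31.8 and 31.5 summed CPM over the 10 genes and replicates 11 and 12 holding 122 and 186.

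Some markers of gut cell types differed between the genotypes, beside 18.5% (females) and 21.7% (males) of all tested genes called higher. Of 7 enterocyte markers 4 rose in each sex (mex1, mesh, Ssk and Tsp2A). The 7 summed to 8828 to 10050 CPM in females and 9356 to 13210 CPM in males labelled Myc RNAi, against the control sums given above. The mex1 call in males ended with no filter and without some single libraries (edgeR adjusted p up to 0.115). Among 8 enteroendocrine markers none rose and 1 (CCHa2) fell in each sex, in males not with total-count scaling. Among 7 visceral muscle markers 1 (Tm1) rose in each sex and none fell. Of 6 markers of stem cells and their progeny, 6 rose in females and 3 in males. Without female control replicate 1 or 2 the calls of esg, klu and E(spl)mbeta-HLH in females ended (edgeR adjusted p up to 0.0953). The 6 markers summed to 51.5 to 118.2 and 145 to 207.6 CPM in females, controls first, and to 69.97 to 118.7 and 158.9 to 247.9 CPM in males. Their part in the values of the peptide genes was not tested.

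In males, too, none of the 10 genes was called between the genotypes, against 39.4% of all tested genes. Dpt (log2 fold change −0.15, SE 0.71, edgeR adjusted p = 0.89), CecA1 (−0.08, SE 0.81, 0.949), AttA (−0.34, SE 0.67, 0.73) and Dro (−0.72, SE 0.78, 0.502) had values below 0. DptB (0.53, SE 0.71, 0.593), Def (0.73, SE 0.54, 0.311), AttB (0.77, SE 0.58, 0.325) and AttD (0.63, SE 0.44, 0.282) had values above 0. No member had an unadjusted p below 0.05, against 46.8% of all tested genes, and DESeq2 and limma voom called none. In all 10 genes the libraries overlapped; without overlap were 18.8% (higher) and 16.1% (lower) of all tested genes. The median was 0.23 over the 8 genes and 0.05 over all tested genes. Dpt had a mean of 265 ± 49.8 CPM in controls and 238 ± 160 CPM in the others (SD, n = 4 each), and the SD was the larger in the latter. AttB was called higher without male control replicate 5 (1.51, edgeR adjusted p = 0.0453). With total-count scaling AttD was called higher, while the median of all tested genes stood at 0.52. With standard errors of 0.44 to 0.81, differences of about that size were not detectable at this replication.

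The difference between the female and the male effect was tested as an interaction. It called none of the 8 tested genes, against 1.07% of all tested genes, none had an unadjusted p below 0.05, against 11.9%, and DESeq2 and limma voom called none. The largest values were 1.80 for AttA (SE 1.13, edgeR adjusted p = 0.581) and 1.64 for Dpt (SE 1.02, 0.577). AttD had the most negative value (−1.02, SE 0.63, 0.578). A smaller number of called sex differences in the libraries labelled Myc RNAi than in controls is therefore not shown to be a difference between the genotypes.

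Summed over the 10 genes, the levels ordered the groups from female controls, at 30.0, 17.4, 89.3 and 18.3 CPM, through females labelled Myc RNAi, at 31.8, 31.5, 122 and 186 CPM, to the males. Male controls held 359, 413, 302 and 276 CPM and males labelled Myc RNAi 355, 167, 189 and 670 CPM. The female groups overlapped each other, as did the male groups. No female control reached the lowest male of either genotype, and 1 female labelled Myc RNAi (replicate 12) exceeded male replicate 14 only.

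Within groups the genes moved together from pool to pool, AttD less so. For each gene, deviations of log2 CPM from the group mean were compared over the 16 libraries, which share depth and composition effects across genes. Pearson's r was 0.965 between Dpt and DptB (Spearman's rho 0.956), 0.881 between DptB and Def (0.924), 0.855 between Dpt and CecA1 (0.853) and 0.79 between AttA and AttB (0.821), whose reads may be shared. The median over all 28 pairs was 0.669. The r of AttD with the other 7 ranged from −0.05 to 0.432, with a median of 0.178. In female control replicate 4, AttD was 1.01 above its group mean on the log2 scale while Dpt was 1.42 below.

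**Figure D3:**
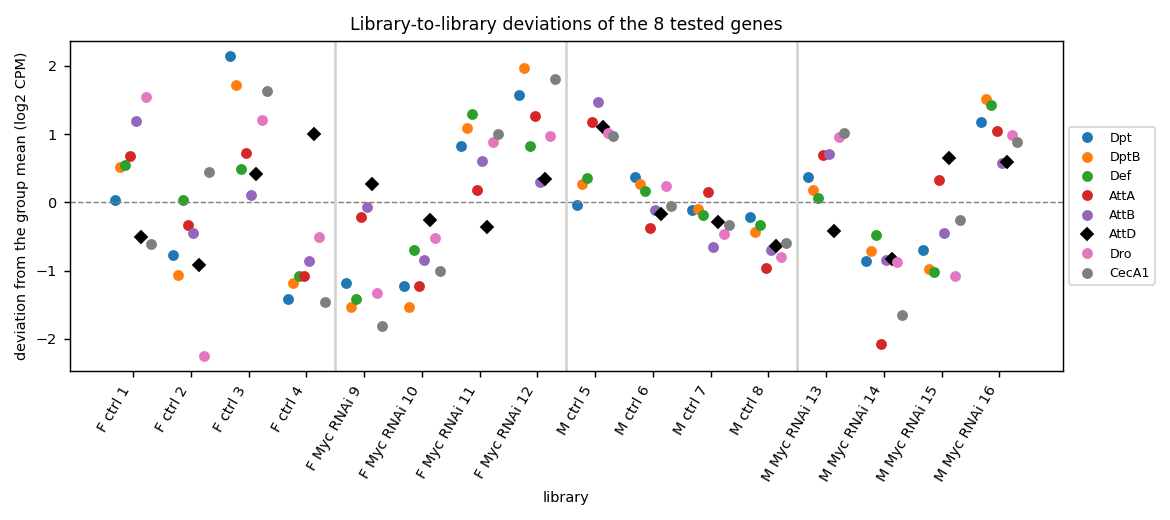
Deviation of each of the 8 tested genes from its group mean (log2 CPM) in each of the 16 libraries; vertical lines divide the groups and black diamonds mark AttD. Replicates 3, 12 and 16 lie above their group means in all 8 genes, and replicates 8, 10 and 14 below in all 8.

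The pools with high peptide transcripts were female control replicate 3, whose mean deviation over the 8 genes was 1.06, female replicate 12 (1.13) and male replicate 16 (1.03) labelled Myc RNAi. The lowest were male replicate 14 (−1.04) and female replicates 9 (−0.91) and 10 (−0.91) of that genotype. Among genes outside the set, the 5 whose deviations were most like the mean deviation of the 8 genes over the 16 libraries were the digestive protease gene Jon99Ci (Pearson's r 0.852, Spearman's rho 0.868), CG7017 (0.834, 0.888), the protease gene Ser6 (0.811, 0.832), CG12746 (0.81, 0.85) and the protease gene Jon25Bi (0.809, 0.785). Without the 2 libraries farthest from the median, replicates 3 and 12, their r was 0.836, 0.83, 0.797, 0.748 and 0.744. CecA2, the neighbouring cecropin, ranked number 12 (0.777) and was looked up after its value was seen. All 6 markers of gut stem cells and their progeny ran against the mean deviation, with r from −0.786 for esg to −0.474 for Sox21a. Over the 7 tested genes of the fat body list, r ranged from 0.671 for apolpp to −0.139 for Lsp1beta, with Cyp4g1 at 0.508 and Lsp2 at 0.389. Their part in the shared pattern was not tested.

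The other antimicrobial peptide genes were low in these guts. Of 20 listed, 19 were in the table, 7 were tested, and CecC alone was lower in female than in male controls (log2 difference −5.23, SE 1.36, edgeR adjusted p = 0.0216). CecA2, Drs, Drsl2 and Drsl3 also had values below 0 in that comparison and were not called. Dso1 (1.74, SE 0.89, edgeR adjusted p = 0.247) and BomS3 (1.43, SE 0.89, 0.355) had higher values in female controls and were not called. CecC had 94, 9, 18 and 14 reads in male controls against 3 over all 4 females, and its call ended without male control replicate 5 or female control replicate 1, 2 or 4 (edgeR adjusted p up to 0.0823). Drs, the antifungal drosomycin gene and a Toll target in the fat body, was lower in males labelled Myc RNAi (−3.35, SE 1.04, edgeR adjusted p = 0.0168). The call of Drs ended without male control replicate 7 (edgeR adjusted p up to 0.0759). Drsl3, a drosomycin-like gene, was higher in females (1.27, SE 0.37, edgeR adjusted p = 0.013; 0.0504 without replicate 11) and in males (0.97, SE 0.36, 0.0411) labelled Myc RNAi. The call in males ended without any of 8 libraries (edgeR adjusted p up to 0.121).

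The PGRP-SC genes, whose enzymes degrade peptidoglycan, fell in the libraries labelled Myc RNAi of both sexes. Among 12 negative regulators of IMD signalling, 4 fell and 2 rose in females, and 5 fell and 3 rose in males; 17.6% and 17.7% of all tested genes were called lower. The fourth fall in females, cad, ended with total-count scaling (edgeR adjusted p = 0.928). In females PGRP-SC2, the most abundant of them, went from 2653, 4321, 5497 and 3131 CPM to 1118, 838, 826 and 1174 CPM. All 4 controls lay above all 4 others, and the fold change was −1.98 on the log2 scale (SE 0.27, edgeR adjusted p = 3.34e-05). In males PGRP-SC2 went from 5668, 4653, 4625 and 2658 CPM to 568, 357, 549 and 667 CPM (−3.04, SE 0.28, edgeR adjusted p = 4.57e-07). PGRP-SC1a fell from 91.1 ± 18.1 to 5.90 ± 3.38 CPM in females (−3.92, SE 0.50) and from 82.2 ± 31.2 to 3.08 ± 1.95 CPM in males (−4.70, SE 0.52). Its near-identical neighbour PGRP-SC1b, with which reads may be shared, had −3.42 (SE 0.39) and −3.55 (SE 0.40).

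Among the other inhibitors, pirk, which interferes with the IMD receptors, was called lower in males (−1.27, SE 0.35, edgeR adjusted p = 0.00841), and that call ended with total-count scaling (−0.80, 0.0821). The sexes were not shown to differ in it, since the interaction called none of the 12. The deubiquitinase gene CYLD rose in females (0.32, SE 0.10) and males (0.48, SE 0.10), and casp, which encodes the inhibitor Caspar, rose in females (0.45, SE 0.11) and males (0.39, SE 0.11). CYLD in females did not pass once replicate 2, 4 or 12 was left out, with an edgeR adjusted p of at most 0.104. PGRP-LB, an amidase chosen for the plot after its values were seen, had −0.21 (SE 0.21, edgeR adjusted p = 0.487) in females, which was not called, and −0.68 in males, where it was called lower; the male call ended with total-count scaling and without replicate 5 or 14. Between the sexes, 1 of the 12 was called in controls: cad, a repressor of peptide genes in the posterior gut, was higher in females (0.57, SE 0.14, edgeR adjusted p = 0.0147; 0.05 when the least favourable library was left out).

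Of 15 receptors and cytoplasmic members of the IMD pathway, 5 rose and 1 fell in females and 7 rose and 3 fell in males labelled Myc RNAi; 18.5% and 21.7% of all tested genes were called higher. The rises of ben (both sexes) and IKKbeta (males) ended without 1 or more single libraries (edgeR adjusted p up to 0.164). The caspase gene Dredd, needed to cleave Relish, rose in females (0.78, SE 0.12) and males (0.80, SE 0.12), as did key, the kinase subunit gene (0.69, SE 0.18 and 0.90, SE 0.18). Fadd and Diap2 also rose in both sexes, by 0.57 (SE 0.14) and 0.38 (SE 0.09) in females. Tab2 had −0.48 in females and −0.54 in males, and imd (−0.54) and PGRP-LC (−0.50) fell in males; with total-count scaling none of these 4 calls of lower values remained. Rel itself, the gene of Relish, was at 258 ± 83.8 and 240 ± 30.2 CPM in females and at 377 ± 45.6 and 300 ± 51.0 CPM in males (controls first) and was called in no comparison. Between control sexes, imd was lower (−0.42, SE 0.12, edgeR adjusted p = 0.0315) and PGRP-LE higher (0.40, SE 0.10, 0.018) in females. Both of these calls ended with total-count scaling, and the imd call without any of 6 libraries (edgeR adjusted p up to 0.101). The PGRP-LE call ended without female control replicate 3 or male control replicate 6 or 8 (up to 0.0517).

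PGRP-SD, a secreted peptidoglycan recognition protein kept here in the list of the Toll pathway, was also lower in females. It was at 2.45, 1.37, 3.24 and 3.28 CPM in female controls and at 21.4, 12.9, 9.48 and 9.49 CPM in male controls. With the Myc RNAi label it was at 4.12, 2.65, 5.25 and 5.86 CPM in females and at 14.2, 6.39, 17.6 and 22.4 CPM in males. The sexes did not overlap in either genotype, with log2 differences of −2.36 (SE 0.39, edgeR adjusted p = 0.00151) and −1.75 (SE 0.38, 0.0117), and both passed without any 1 library. Of the 16 Toll pathway genes 15 were tested; 2 were lower in females among controls (the other being the protease gene grass, −1.25, SE 0.31, which did not pass without female control replicate 1, edgeR adjusted p = 0.0526). Also 2 were lower in females among libraries labelled Myc RNAi, the other being PGRP-SA (−1.20, SE 0.27, edgeR adjusted p = 0.0184), whose call ended once replicate 9, 10 or 12 was left out, with values up to 0.06.

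Between the genotypes, 4 Toll genes rose and 4 fell in females, and 4 rose and 2 fell in males, beside the shares of all tested genes given for the IMD lists. With total-count scaling the falls of tub, cact and SPE in females and of cact in males did not pass, which left grass as the gene that fell in each sex. The adaptor gene Myd88 (1.13, SE 0.14 and 0.97, SE 0.14), the kinase gene pll (0.47, SE 0.10 and 0.66, SE 0.10) and the recognition gene PGRP-SA (1.32, SE 0.29 and 1.79, SE 0.28) rose in females and males. The protease gene grass fell in both (−1.37, SE 0.31 and −2.23, SE 0.31).

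**Figure D4:**
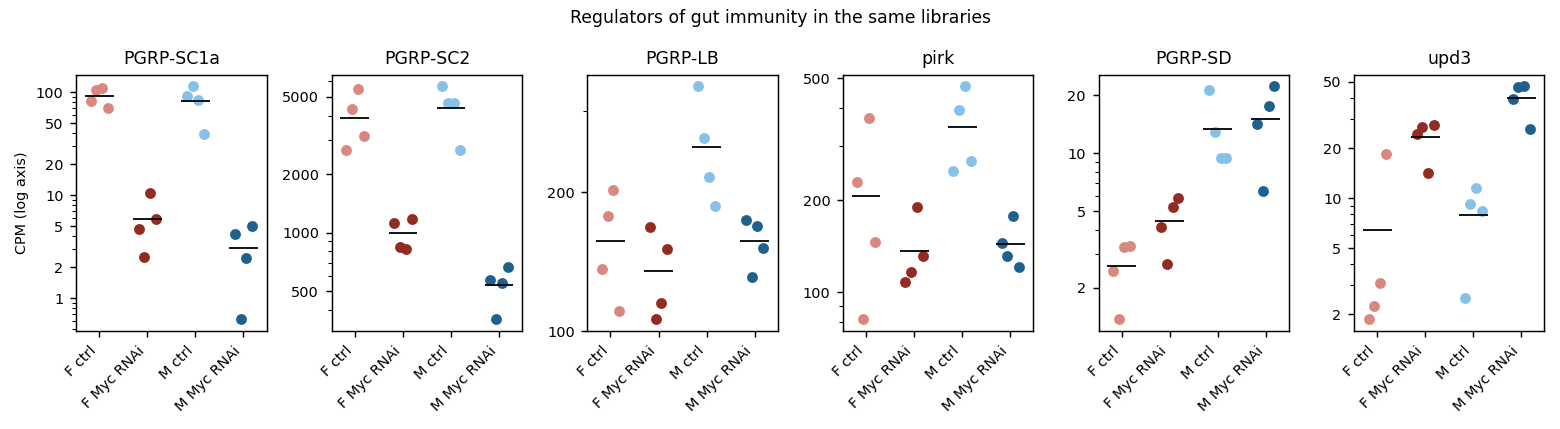
Normalised level (CPM, log axis, a range of its own in each panel) of 6 regulators in each library, by group; F is female, M is male, ctrl is control, points are the 4 libraries of a group and lines their means. PGRP-SC1a and PGRP-SC2 are lower in every library labelled Myc RNAi than in every control of the same sex, and PGRP-SD is lower in every female than in every male of the same genotype.

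The cytokine gene upd3, induced in damaged enterocytes, was at 1.86, 2.23, 3.07 and 18.5 CPM in female controls and at 24.2, 26.8, 14.1 and 27.5 CPM in females labelled Myc RNAi. It is 1 of the JAK-STAT list. The groups of upd3 overlapped through control replicate 4, and the log2 fold change was 1.86 (SE 0.59, edgeR adjusted p = 0.0213). It ranged from 1.54 to 3.21 when 1 library was left out, the highest being without that control, and did not pass without female control replicate 1, 2 or 3 (edgeR adjusted p up to 0.0678). Male controls had 2.50, 9.18, 11.6 and 8.33 CPM of upd3 against 39.5, 46.9, 47.1 and 26.2 CPM with the Myc RNAi label, without overlap (2.33, SE 0.59, edgeR adjusted p = 0.00476). Of 11 genes of the JAK-STAT list 8 were tested, 4 rose and 1 fell in females and 3 rose and none fell in males, beside the shares of all tested genes given for the IMD lists. In females the calls of upd3, Socs36E and TotC all ended without female control replicate 2 or 3, and that of hop, the 1 that fell, with total-count scaling. In males the call of dome ended without any of 7 libraries (edgeR adjusted p up to 0.0994). The phosphatase gene Ptp61F rose in both (0.80, SE 0.11 and 0.74, SE 0.11). Between the sexes none of these 8 was called in controls or in the libraries labelled Myc RNAi.

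Among other regulators, the catalase gene Cat fell in females (−1.19, SE 0.15) and males (−2.06, SE 0.16) labelled Myc RNAi, and it was 1 of 4 tested genes of the Duox list. The fasting-responsive factor foxo, which can activate peptide genes independently of infection, fell in both (−1.07, SE 0.16 and −1.18, SE 0.16). The stress-kinase pathway genes puc (1.30, SE 0.24 and 0.99, SE 0.24) and Jra (0.77, SE 0.15 and 0.68, SE 0.15) rose in both. Of the 11 tested genes of the list with foxo, puc and Jra, 3 rose and 1 fell in females, and 3 rose and 2 fell in males. The shares of all tested genes are those given for the IMD lists. The rise of bsk in females ended without female control replicate 2 (edgeR adjusted p = 0.0721). In males the rise of Dsp1 ended without some single libraries (up to 0.0954). The fall of GATAe in males ended with total-count scaling (edgeR adjusted p = 0.627), with no filter and without some single libraries.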

How the data were processed

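Midgut poly(A) RNA was sequenced with a directional library kit, per the labels' protocols. The authors deposited raw counts of reads for each gene, with no scaling; dm6, TopHat2 2.0.11 and featureCounts are named per the submitters' processing notes. The annotation, strand setting and rule for multi-mapping reads were not stated in the sources at hand. All 16 libraries were grouped by title. None of the 24 replicate pairs was close enough to be 1 library deposited again (lowest chi-square per degree of freedom 24.2). Nothing says more than that samples were independent pools; p-values measure the spread between them.

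Genes were filtered with filterByExpr (minimum count 10 in 4 libraries), scaled with TMM and tested with edgeR 4.0.16 (R 4.3.3) quasi-likelihood, 1 mean per group, 5 contrasts, adjusted over 9314 genes. SEs were derived from estimates and F statistics. The fit was tested on simulated data. The deviations use log2 CPM with a prior count of 2. Alternatives were total-count scaling, DESeq2 1.42.0, limma voom 3.58.1, 2 other filters, fits to the 2 groups compared, leaving out each library, and AttA plus AttB summed. All 10 genes are named; from each list up to 5 called genes with the lowest p per comparison could be named. Members and lists were chosen with earlier results of these data known. Of the list entries, BaraA1 and Mondo found no single match in the table.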

Additional observations from a re-analysis of the deposited data

Results flagged for a closer look

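A library that lay far from the other 3 of its group was looked for in each of the 10 genes and 4 groups, 40 cases in all, of which chance gives about 1 in 20. In 7 cases the gap to the nearest library, divided by the range of the group, was above Dixon's critical value. Dpt was high in female control replicate 3, at 69.8 CPM. In male control replicate 5, AttB stood at 2.55 CPM, AttC at 2.04 CPM and AttD at 24.3 CPM. AttC in female control replicate 2 was at 0 CPM, and Mtk had its only reads of the group in female replicate 11 (0.0481 CPM) and male replicate 15 (0.102 CPM) labelled Myc RNAi; these 3 cases rest on at most 3 reads in any library of the group.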

How the results depend on the processing

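No paired analysis was run, because the labels state no pairing. The replicate numbers run from 1 to 16 and no 2 groups share one, which does not tell whether pools were prepared in matched sets. The direction of the difference between the sexes was the same for the 8 tested genes in both genotypes under all alternatives run. Among controls the number of genes called, 6, was 8 with DESeq2, 4 with limma voom or with no filter, 7 with the 1 CPM filter, 5 in the fit to 2 groups, and between 3 and 7 when 1 library was left out, lowest without female control replicate 2. In the libraries labelled Myc RNAi the 3 calls became 6 with DESeq2 and 1 with no filter, and between 1 and 5 when 1 library was left out, with 1 without replicate 9, 10 or 16 and 5 without replicate 14, where AttC passed the filter and was called. For the genotypes, the count of 0 became 3 in females and 1 in males with total-count scaling, and 0 to 1 in each sex when 1 library was left out; it stayed 0 for the interaction under all alternatives run. The sign of values that were not called changed in males with total-count scaling for Dpt (0.31), AttA (0.19) and CecA1 (0.43), and with AttA and AttB summed, an alternative chosen after seeing the data, for AttA (0.15). Leaving out 1 library also turned the sign in males for Dpt (range −0.68 to 0.08), DptB (−0.24 to 0.79), AttA (−0.67 to 0.16) and CecA1 (−0.41 to 0.31), in females for CecA1 (−0.12 to 1.88), and in the interaction for Def (−0.15 to 1.08) and CecA1 (−0.032 to 1.97). The cause of these changes was not tested. AttC and Mtk, fitted with no filter, were called in no comparison; AttC came closest between the sexes labelled Myc RNAi (edgeR adjusted p = 0.063). Few reads limit AttA, AttB, AttC, Dro, CecA1 and Mtk, which had 21 to 621 reads over all libraries.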
